A study of Caenorhabditis elegans with 12 samples.

Results

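The genes described here encode the MES proteins and the other histone methylation factors best known from the *C. elegans* germline: *mes-2*, *mes-3*, *mes-4*, *mes-6*, *mrg-1*, *met-1*, *set-2* and *spr-5*. They were chosen by name, as every probe set whose gene symbol equals 1 of these 8, which gave 12 probe sets of the 21541 that carry 17675 genes. In *lin-54* mutant and wild-type embryos all 12 were detected on all 6 arrays, as 43.7% of all probe sets were, and in germlines 6 of the 12 were. Not 1 of the 8 genes was called changed in either mutant tissue with all arrays in the fit. *mes-6* alone was called, lower, when the 2 germline arrays that stood apart were left out (n = 2 each). In that fit 1.18% of all probe sets were called lower and 0.808% higher. In *lin-54(n2990)* embryos all 12 mean levels lay above wild-type, by at most 0.52 on the log2 scale. Of all probe sets 50.7% lay above, and of those present on all 6 arrays 60.9%. The highest value of all 6 arrays was in the same mutant replicate each time, as it was for 37.4% and 47.0% of these.

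The mutant embryos came from a strain carrying *lin-54(n2990)*, a partial loss-of-function missense allele that alters the second tesmin (CXC) domain of the DNA-binding protein LIN-54 and still yields protein, set against embryos of wild-type N2. Both were grown at 25°C and harvested from young adults by bleaching. The mutant germlines came from adults with *lin-54(n3423)*, a deletion allele that leaves no detectable transcript or protein, makes worms sterile and is kept over a balancer chromosome, set against N2 germlines, both grown at 20°C and dissected 24 hours after the L4 stage. The excised piece runs from the mitotic tip to late pachytene, and some somatic gonad cells come with it, while embryos hold only a few germ cell precursors. Each of the 4 groups has 3 biological replicates with 1 array each. LIN-54 is a subunit of DRM, a complex that represses or activates its target genes. Because alleles, temperature, RNA amplification (germlines only), labelling kit and normalization all differ between the tissues, no level or change was tested across them.

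Methylation of histone tails marks active and silent chromatin. MES-2 and MES-6 are homologs of the Polycomb proteins E(z) and ESC, and with MES-3, a nematode protein, they form the complex that methylates histone H3 on lysine 27, a mark of repressed chromatin that is abundant on the germline X chromosomes. MES-4, a SET domain protein of the NSD family, places H3 lysine 36 methylation on germline-expressed genes and is concentrated on autosomes. The chromodomain protein MRG-1 is also found mainly on autosomes, and worms without maternal any of the MES proteins or MRG-1 are sterile. MET-1 is the homolog of yeast Set2, which methylates H3 lysine 36 during transcription. SET-2 is the homolog of yeast Set1 and methylates H3 lysine 4, and SPR-5 is the homolog of mammalian LSD1, which removes that mark.

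In the annotation that comes with the arrays, *mes-2* (WBGene00003220) lies on chromosome II, *mes-3* (WBGene00003221) on I, *mes-4* (WBGene00003222) on V and *mes-6* (WBGene00003224) on IV. *mrg-1* (WBGene00003406) and *set-2* (WBGene00004782) lie on III, and *met-1* (WBGene00016603) and *spr-5* (WBGene00005010) on I. Thus 0 of the 8 genes are X-linked, where 14.1% of the genes on the array are. *mes-3*, *mes-4*, *mrg-1* and *set-2* have 2 probe sets each and the others 1. Names ending in _s_at mark probe sets whose probes can match more than 1 transcript.

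All values below are log2 intensities. To be called changed, a probe set had to reach a limma p of at most 0.01 before adjustment and a 1.5-fold change, the rule of the study's methods, and adjusted p-values are Benjamini-Hochberg values over all 21541 probe sets. A detection call (present, marginal or absent) says whether a probe set stood above background on an array. Some arrays stood apart. Among embryos, *lin-54(n2990)* replicate 2 had 10826 present calls against 11609 to 11985 on the other 5 arrays, and its correlation with its own replicates was 0.959 and 0.979. Among germlines, the arrays numbered 1 of both genotypes had 5954 (mutant) and 6347 (wild-type) present calls against 7174 to 8209 on the others, and correlated with their own replicates at 0.928 to 0.933. Many of the log2 changes and list counts that moved with these arrays are also given without them. The transcript of *lin-54* itself was absent on all 3 *lin-54(n3423)* germline arrays (8.88, 8.14 and 8.18) and present on all 3 wild-type ones (9.68, 11.01 and 11.02), a log2 change of -2.17 ± 0.43 (SE). In embryos it measured 10.58, 10.67 and 10.34 in *lin-54(n2990)* and 10.17, 10.00 and 10.15 in wild-type, and since that allele is a missense change its level does not check the labels.

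The first question was whether the genes change in *lin-54(n2990)* embryos. *mes-2*, the catalytic subunit of the H3 lysine 27 complex, had 7.80, 8.59 and 7.37 in *lin-54(n2990)* replicates 1, 2 and 3 against 7.31, 7.47 and 7.41 in wild-type. Its mutant arrays spread over 1.22 log2 units, the widest of the 8 genes, and replicate 3 lay among the wild-type arrays. The log2 change of 0.52 ± 0.30 (SE, n = 3 each) was the largest of the 12 and was not called (adjusted p = 0.317), and without mutant replicate 2 it was 0.19.

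*mes-6*, which encodes the ESC-like WD repeat partner of MES-2, had 10.49, 10.74 and 10.29 in *lin-54(n2990)* embryos against 10.05, 10.199 and 9.99 in wild-type. It was the 1 probe set of the 12 whose mutant arrays all lay above its wild-type arrays, a separation in that direction that 15.2% of all probe sets showed. The log2 change of 0.43 ± 0.14 (SE), or 1.35-fold, had the lowest adjusted p of the 12 (0.144, limma) and stayed under the fold threshold. In a fit with the replicate number as a block its adjusted p was 0.0775, still with less than the 1.5-fold change required. Without mutant replicate 2 the change was 0.31 (adjusted p = 0.210).

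*mes-3*, the third subunit of the complex, gave a mixed picture on both of its probe sets. On 175611_at it had 9.24, 9.68 and 9.35 in *lin-54(n2990)* and 9.42, 8.94 and 9.17 in wild-type embryos. On 188017_s_at it had 8.43, 8.77 and 8.37 in *lin-54(n2990)* and 8.45, 7.93 and 8.28 in wild-type. On both, mutant replicate 2 was the highest array, wild-type replicate 2 the lowest, and the 4 others overlapped. The log2 changes of 0.25 ± 0.17 and 0.31 ± 0.17 (SE) were not called (adjusted p = 0.386 and 0.311), and without mutant replicate 2 they were 0.12 and 0.18.

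**Figure D1:**
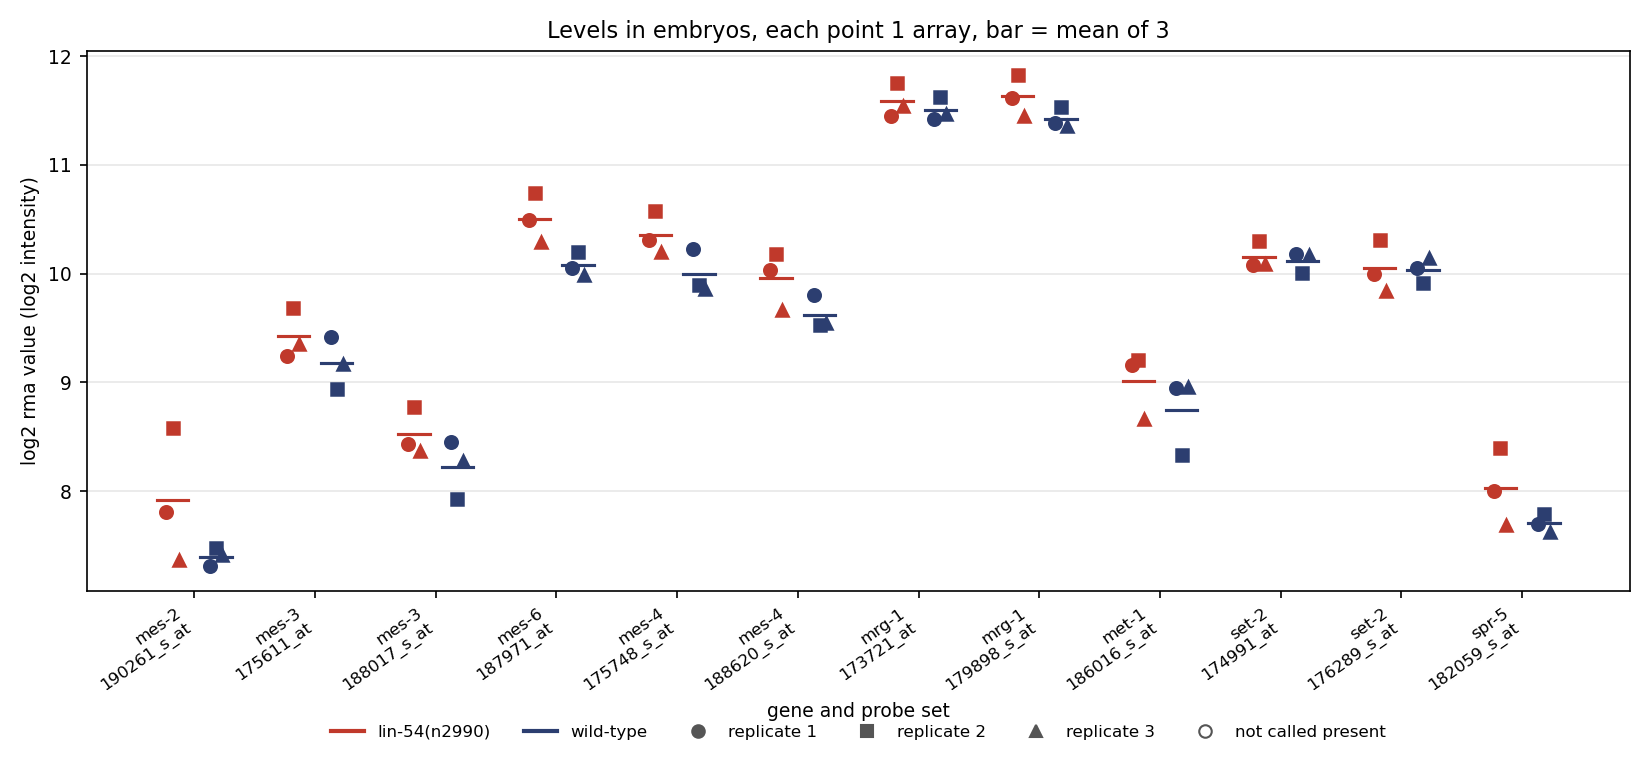
Log2 rma values (vertical axis) of the 12 probe sets in *lin-54(n2990)* (red, left) and wild-type (blue, right) embryos. Each point is 1 array, its shape gives the replicate and the bar is the mean of 3. The mutant square, replicate 2, is the highest of the 6 arrays for all 12 probe sets, and the *mes-6* mutant points are all above the wild-type ones.

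*mes-4*, the H3 lysine 36 methyltransferase that keeps the memory of germline transcription, had 10.31, 10.57 and 10.199 in *lin-54(n2990)* embryos on 175748_s_at, against 10.22, 9.90 and 9.86 in wild-type. On 188620_s_at it had 10.04, 10.18 and 9.67 in *lin-54(n2990)* against 9.80, 9.52 and 9.54. In both cases only the lowest mutant array reached into the wild-type range. The log2 changes were 0.37 ± 0.14 (SE, 95% interval 0.012 to 0.72, adjusted p = 0.188) and 0.34 ± 0.16 (adjusted p = 0.240), and 0.26 and 0.23 without mutant replicate 2. *mrg-1* differed less. It had 11.45, 11.76 and 11.55 in *lin-54(n2990)* and 11.42, 11.63 and 11.47 in wild-type on 173721_at, a log2 change of 0.080 ± 0.11, and 11.62, 11.82 and 11.45 against 11.38, 11.53 and 11.36 on 179898_s_at, a change of 0.21 ± 0.12 (SE). Mutant and wild-type arrays overlapped on both, and the changes without mutant replicate 2 were -0.0065 and 0.11.

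Of the enzymes that add or remove methyl groups outside the MES group, *met-1* had 9.16, 9.205 and 8.67 in *lin-54(n2990)* embryos and 8.95, 8.33 and 8.96 in wild-type. The low wild-type replicate 2 and the low mutant replicate 3 set most of this spread, and the log2 change was 0.26 ± 0.23 (SE, adjusted p = 0.505), or 0.17 without mutant replicate 2. *set-2* differed least. It had 10.08, 10.30 and 10.09 in *lin-54(n2990)* against 10.18, 10.01 and 10.17 in wild-type on 174991_at, and 10.00, 10.31 and 9.84 against 10.05, 9.91 and 10.14 on 176289_s_at. Its log2 changes were 0.034 ± 0.10 and 0.016 ± 0.14 (SE), and the 95% interval on 174991_at, -0.20 to 0.27, excludes a 1.5-fold change in either direction. *spr-5*, the demethylase, had 7.998, 8.40 and 7.69 in *lin-54(n2990)* and 7.699, 7.79 and 7.63 in wild-type. Here too replicate 2 was the high mutant array and replicate 3 lay within the wild-type range, with a log2 change of 0.32 ± 0.18 (SE, adjusted p = 0.311) that was 0.14 without replicate 2.

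In all, 0 of the 8 genes were called in embryos by limma, where 3.83% of genes were called higher and 1.69% lower (4.85% and 3.83% with the replicate block, again without any of the 8). No adjusted p of the 12 was 0.05 or less, where 0.246% of all probe sets passed on the higher and 0.0186% on the lower side. Only *mes-6* and 1 of the *mes-4* probe sets reached an unadjusted p of 0.05, both higher, as did 25.4% of all probe sets in either direction. The 12 mean levels were all higher in the mutant under the deposited scaling, though both *set-2* probe sets turned lower under a further quantile normalization. For comparison, 50.7% of all probe sets, and 60.9% of those present on all 6 arrays, were higher by mean. The median log2 change of the 12 was 0.28, against 0.0038 over all probe sets and 0.11 over those present on all 6 arrays. Only 4 of the 12 intervals lay wholly within a 1.5-fold change, and the other 8 reached past it on the higher side.

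These embryo values went with 1 array. *lin-54(n2990)* replicate 2 was the highest of the 6 arrays for 12 of the 12 probe sets, as it was for 37.4% of all probe sets and 47.0% of those present throughout, and mutant replicate 3 was the lowest mutant array for 9 of the 12. Without mutant replicate 2, 9 of the 12 stayed higher by mean, both *set-2* probe sets and *mrg-1* 173721_at turned lower, and the median log2 change was 0.15, against -0.017 over all probe sets and 0.052 over those present throughout. Lists of stage markers differed between the same arrays. The mean level of 17 probe sets for maternal RNAs of early embryos (such as *mex-5*, *pos-1* and *oma-1*) was 10.83, 11.36 and 10.21 in *lin-54(n2990)* and 9.96, 10.61 and 10.18 in wild-type, and 15 of the 17 were higher by mean in the mutant. That of 17 probe sets for 9 genes of late differentiation was 7.93, 7.31 and 8.15 in *lin-54(n2990)* and 8.49, 8.27 and 8.49 in wild-type, and 15 of the 17 were lower. Only 7 to 9 of these 17 were present per *lin-54(n2990)* array and 9 to 10 per wild-type array, so the count includes undetected probe sets. Without mutant replicate 2 again 15 of 17 maternal probe sets were higher (median log2 change 0.34, against 0.60 with all arrays) and 15 of 17 late ones lower (-0.28, against -0.43). The mean of the 12 histone methylation probe sets was 9.72, 10.03 and 9.54 in *lin-54(n2990)* and 9.58, 9.43 and 9.50 in wild-type, so that mutant replicate 2 was at the top for these and for the maternal list, and at the bottom for the late list. Among the wild-type arrays the order differed. There replicate 2 was the highest for the maternal list (10.61) and the lowest for the late list (8.27), but the lowest for the 12 probe sets (9.43). The part that embryo stage had in the values of the 8 genes was not tested.

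**Figure D2:**
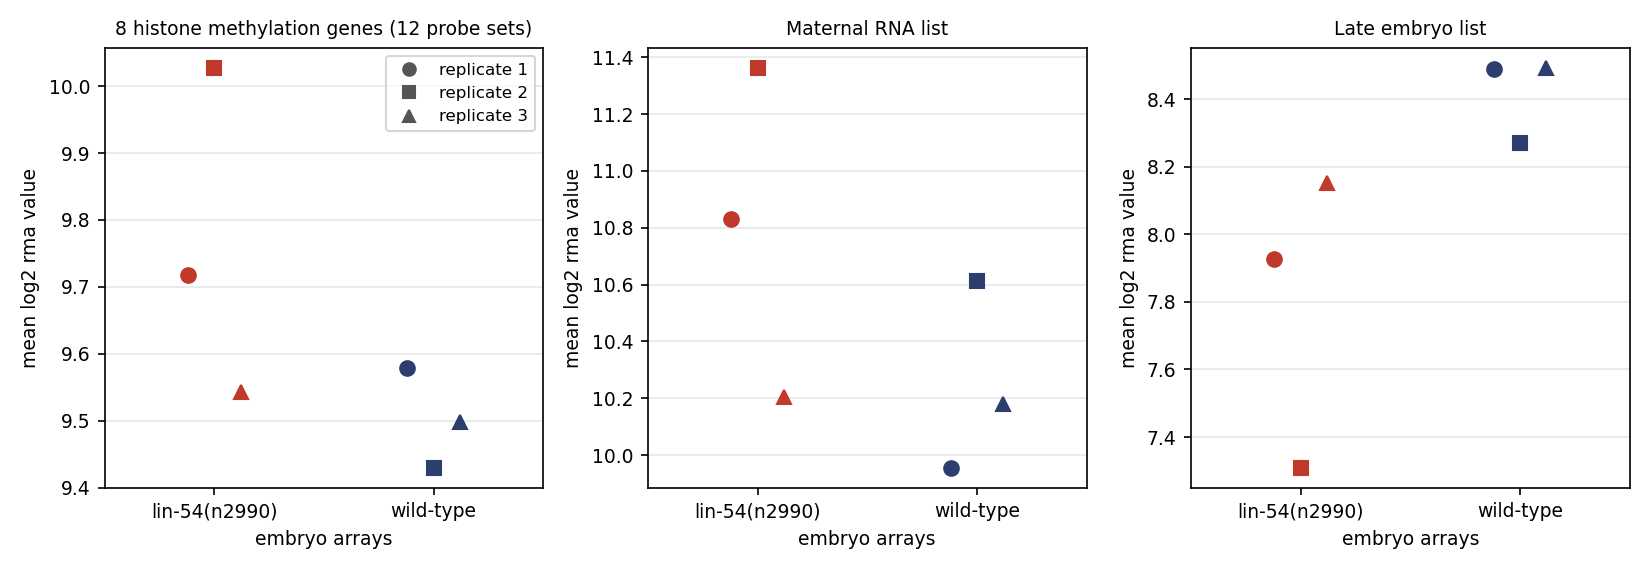
Mean log2 rma value on each embryo array of the 12 histone methylation probe sets (left), of 17 maternal RNA probe sets (middle) and of 17 late differentiation probe sets (right), with *lin-54(n2990)* in red and wild-type in blue and the replicate as the shape. The vertical axes differ and do not start at 0. Mutant replicate 2 is highest in the first 2 panels (10.03 and 11.36) and lowest in the third (7.31). Among wild-type arrays, replicate 2 is lowest in the left panel (9.43), highest in the middle (10.61) and lowest in the right (8.27).

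Markers of germline cells were also higher in the mutant by mean. The level of 13 probe sets for genes such as *glh-1* and *pgl-1*, which encode P granule proteins, averaged 9.35, 9.74 and 8.84 in *lin-54(n2990)* embryos and 8.36, 8.78 and 8.45 in wild-type. All 13 were higher by mean (12 of 13 without mutant replicate 2), and 2, both of *glh-1*, were called, as 3.38% of all probe sets were on the higher side. The 6 probe sets of body muscle genes, which are part of the late differentiation list, averaged 8.299, 6.94 and 8.68 in *lin-54(n2990)* and 9.34, 8.89 and 9.35 in wild-type, and all 6 were lower by mean (5 of 6 without mutant replicate 2). In whole embryos, more cells of a type and more RNA per cell cannot be told apart.

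The second question was whether the genes change in the germline without LIN-54, the tissue in which their proteins are best known. Of the 12 probe sets, 6 were present on all 6 germline arrays (22.1% of all probe sets were), namely *mes-6*, both of *mrg-1* and 1 each of *mes-3*, *mes-4* and *set-2*. *met-1* was the 1 probe set called absent on all 6, at 4.90, 4.86 and 5.01 in *lin-54(n3423)* and 5.16, 4.89 and 4.72 in wild-type, although it was present on all 6 embryo arrays. Such a pattern was shown by 1740 probe sets, or 18.5% of those present on every embryo array. Over all probe sets 51.8% were absent on all 6 germline arrays. Absence of a present call says only that the probe set did not stand above background in amplified RNA. The other 5 had mixed calls.

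The arrays numbered 1 decided most of these mixed calls. *mes-2*, *spr-5* and *mes-4* 188620_s_at were absent on the arrays numbered 1 and present on the 4 others, and *set-2* 176289_s_at was absent on both arrays numbered 1, marginal on wild-type replicate 2 and present on the remaining 3. *mes-3* 188017_s_at was marginal on 2 wild-type arrays and absent on the other 4. For 10 of the 12 probe sets the array numbered 1 was the lowest of its genotype in both genotypes, as for 18.9% of all probe sets and 43.2% of those present on all 6 arrays. The mean of the 12 was 7.58, 8.71 and 8.86 in *lin-54(n3423)* and 7.88, 8.69 and 8.68 in wild-type.

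**Figure D3:**
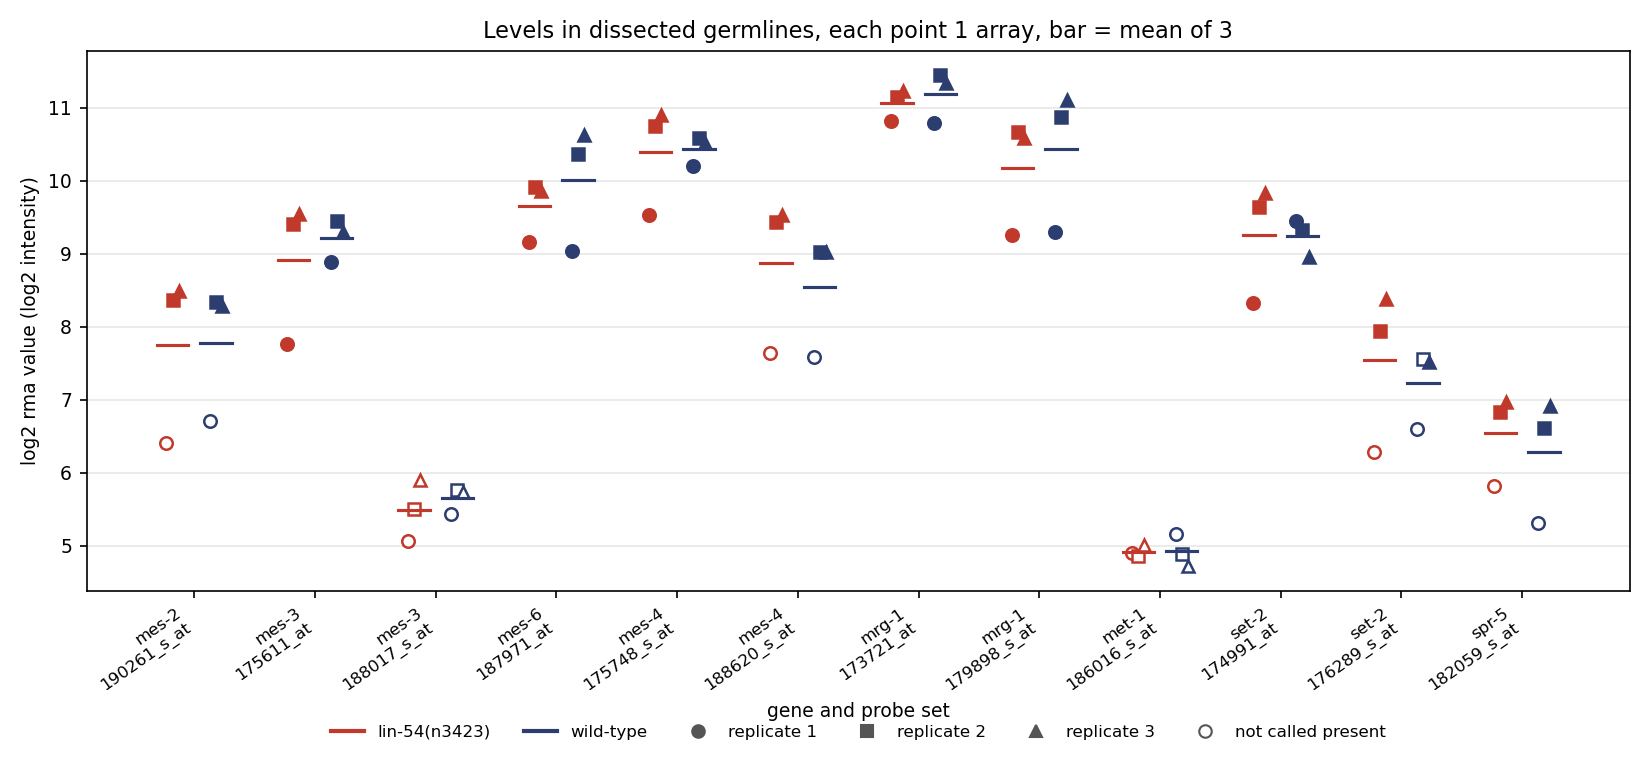
Log2 rma values (vertical axis) of the same 12 probe sets in *lin-54(n3423)* (red, left) and wild-type (blue, right) dissected germlines. Each point is 1 array, its shape gives the replicate, the bar is the mean of 3, and open symbols are arrays on which the probe set was not called present. The circles, replicate 1, lie lowest in both genotypes for 10 of the 12, and *met-1* is open on all 6 arrays.

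Within the H3 lysine 27 complex, *mes-2* had 6.41, 8.36 and 8.49 in *lin-54(n3423)* germlines against 6.72, 8.34 and 8.29 in wild-type. The 2 low arrays are those numbered 1, and the log2 change was -0.028 ± 0.72 (SE). *mes-3* 175611_at had 7.77, 9.41 and 9.55 in *lin-54(n3423)* against 8.89, 9.45 and 9.30 in wild-type, a change of -0.30 ± 0.51 set by the low mutant replicate 1. On 188017_s_at, not called present on any germline array, *mes-3* had 5.07 to 5.91 in *lin-54(n3423)* and 5.44 to 5.77 in wild-type.

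*mes-6* had 9.16, 9.92 and 9.86 in *lin-54(n3423)* germlines against 9.04, 10.37 and 10.63 in wild-type, a log2 change of -0.36 ± 0.47 (SE). Replicates 2 and 3 of the mutant lay below those of wild-type and the arrays numbered 1 did not follow. With the arrays numbered 1 of both genotypes left out, the change was -0.61 ± 0.12 (SE, n = 2 each, 95% interval -0.93 to -0.29, limma adjusted p = 0.264). This passed the call rule, as 1.18% of all probe sets did on the lower side and 0.808% on the higher side in that fit. No other of the 12 probe sets was called in any of the fits made.

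*mes-4* 175748_s_at had 9.54, 10.75 and 10.90 in *lin-54(n3423)* against 10.59 and 10.52 in wild-type replicates 2 and 3, with replicate 1 the lowest and a wild-type mean of 10.44 ± 0.21 (SD, n = 3). On 188620_s_at it had 7.64, 9.43 and 9.54 in *lin-54(n3423)* against 7.59, 9.03 and 9.03 in wild-type. The log2 changes were -0.043 ± 0.38 and 0.32 ± 0.66 (SE). Replicates 2 and 3 of the mutant were above those of wild-type on both probe sets, by 0.27 ± 0.099 and 0.46 ± 0.089 (SE) in the limma fit without the arrays numbered 1 (adjusted p = 0.453 and 0.264), both short of 1.5-fold. *mrg-1* pointed the other way. On 173721_at it had 10.83, 11.14 and 11.24 in *lin-54(n3423)* against 10.79, 11.45 and 11.35 in wild-type, a change of -0.12 ± 0.22, and of -0.21 ± 0.094 without the arrays numbered 1. On 179898_s_at it had 9.26, 10.67 and 10.59 in *lin-54(n3423)* against 9.30, 10.88 and 11.11 in wild-type, a change of -0.26 ± 0.62 (SE), and of -0.36 ± 0.12 without the arrays numbered 1 (adjusted p = 0.390).

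*set-2* 174991_at had 8.33, 9.64 and 9.84 in *lin-54(n3423)* germlines against 9.45, 9.33 and 8.96 in wild-type. The mutant arrays lay on both sides of the wild-type ones, and the log2 change was 0.021 ± 0.42 (SE). On 176289_s_at *set-2* had 6.29, 7.95 and 8.38 in *lin-54(n3423)* against 6.60, 7.56 and 7.52 in wild-type, a change of 0.31 ± 0.60. Without the arrays numbered 1 the changes were 0.59 ± 0.16 and 0.63 ± 0.16 (SE, adjusted p = 0.329 and 0.325, limma), over 1.5-fold but without an unadjusted p as low as 0.01. *spr-5* had 5.82, 6.83 and 6.98 in *lin-54(n3423)* against 5.31, 6.62 and 6.92 in wild-type, and its change of 0.26 ± 0.52 (SE), or 0.13 without the arrays numbered 1, was smaller than the gap between replicates 1 and 2 of either genotype.

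Thus 0 of the 8 genes were called in germlines with all arrays by limma, where 0.0849% of genes were called higher and 0.419% lower, and 0 of the 12 probe sets reached an unadjusted p of 0.05, as 2.50% of all probe sets did in either direction. An adjusted p of 0.05 was reached by 0.00% of all probe sets. The 12 log2 changes ran from -0.36 to 0.32 with a median of -0.036, against 0.023 over all probe sets, and 4 were positive. Without the arrays numbered 1, 8 were positive and the median was 0.12. Their SEs of 0.14 to 0.72, against 0.098 to 0.30 in embryos, limit what could have been seen, since only the interval of *met-1*, which was not detected, lay within a 1.5-fold change. The replicate block brought the SEs to between 0.10 and 0.41, and again none of the 8 was called (lowest adjusted p = 0.640), where 0.362% of genes were called higher and 1.14% lower.

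**Figure D4:**
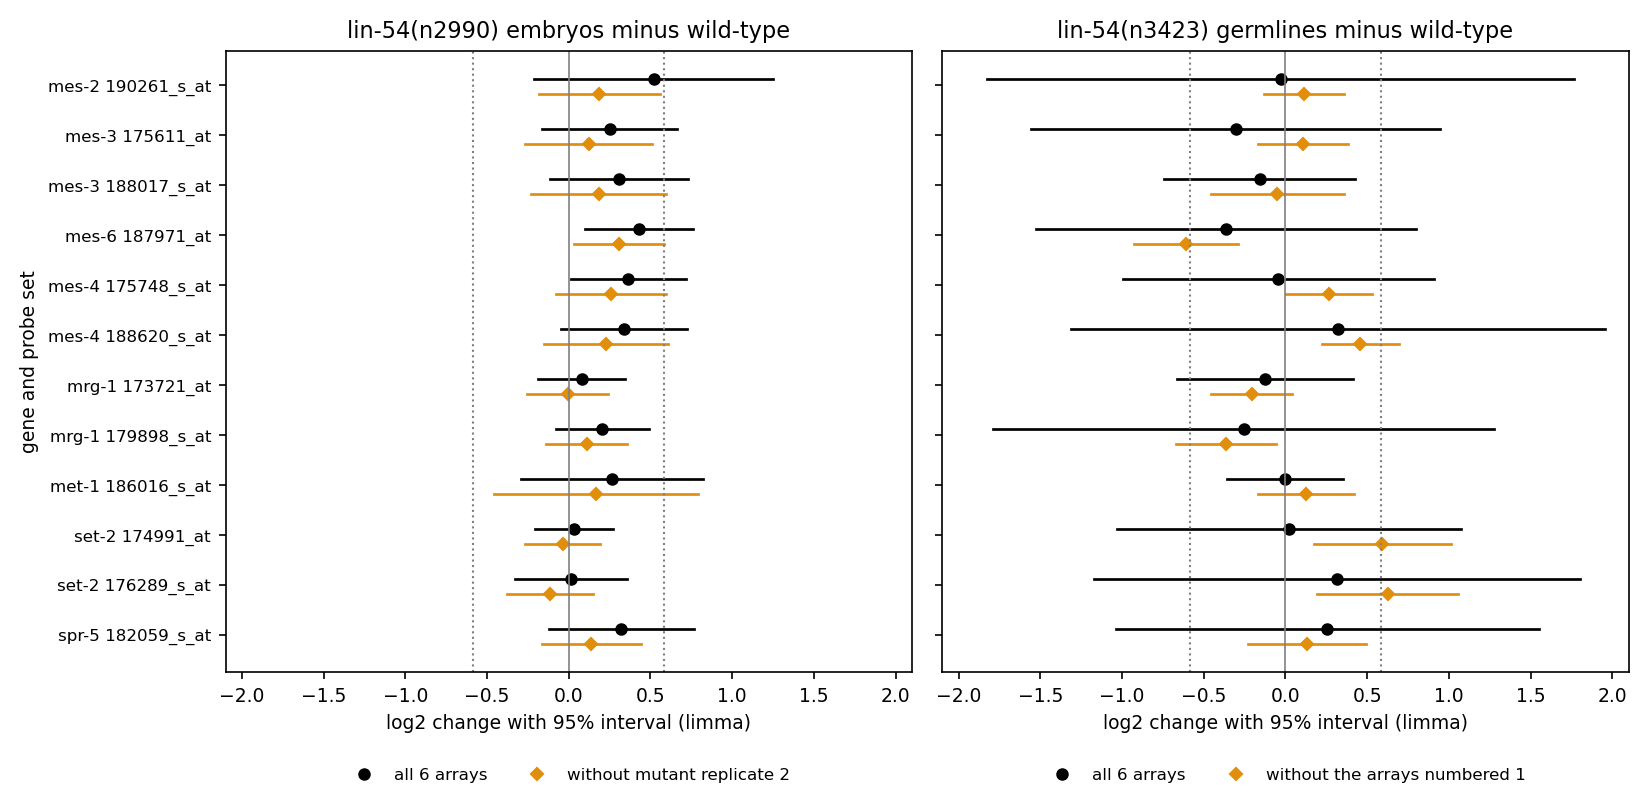
Log2 change with its 95% interval (horizontal axis) of each probe set in *lin-54(n2990)* embryos (left) and *lin-54(n3423)* germlines (right), mutant minus wild-type. Black points use all 6 arrays, orange diamonds leave out mutant replicate 2 (embryos) or the arrays numbered 1 (germlines), and dotted lines mark a 1.5-fold change. Embryo points lie between 0.016 and 0.52, and in germlines the orange *mes-6* interval, -0.93 to -0.29, is the 1 called.

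The dissected tissue carried its markers, with 10 to 12 of 13 germline marker probe sets present per *lin-54(n3423)* array and 8 to 12 per wild-type array. Sperm markers averaged 6.23 to 7.28 in *lin-54(n3423)* and 5.96 to 6.61 in wild-type, with at most 2 of 6 present on any array. Markers of the somatic gonad averaged 6.32 to 6.62 in *lin-54(n3423)* and 6.67 to 6.95 in wild-type. This gap came from 1 of the 7 probe sets, that of the innexin gene *inx-8* (log2 change -2.67, called lower, adjusted p = 0.214, named after its value was seen), while 5 of the 7 were higher by mean and the list's median change was 0.033. Only 1 of the 7 was present per *lin-54(n3423)* array and 1 to 2 per wild-type array, so this count and median rest mostly on undetected probe sets. Markers of intestine and yolk differed between arrays of the same genotype, averaging 7.23, 9.38 and 7.01 in *lin-54(n3423)* and 7.39, 8.15 and 9.17 in wild-type. Of their 8 probe sets 4 to 6 were present per *lin-54(n3423)* array and 5 to 6 per wild-type array. The maternal RNA list averaged 9.27, 10.73 and 10.53 in *lin-54(n3423)* and 9.44, 10.92 and 11.08 in wild-type. Of its 17 probe sets 17 were lower by mean (median -0.29, or -0.36 without the arrays numbered 1). By comparison, 56.6% of all probe sets and 49.0% of those present on all 6 arrays were higher. With all arrays 0 were called. Without the arrays numbered 1, 1 was called lower, as 1.18% of all probe sets were. The part of any of these lists in the germline values was not tested.

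Deviations of arrays of the same replicate number correlated positively in both tissues. The values were also read pair by pair, although the labels state no pairing and these correlations cannot establish it. In embryos 6 of the 12 probe sets were higher in *lin-54(n2990)* in all 3 pairs, namely both of *mes-4* and *mrg-1*, *mes-6* and *spr-5*, where 27.2% of all probe sets were. The pair differences of *mes-6* were 0.44, 0.55 and 0.30. In pair 2 all 12 probe sets were higher in the mutant, and in pairs 1 and 3 there were 8 each. In germlines 2 probe sets, *mes-4* 188620_s_at and *spr-5*, were higher in all 3 pairs (18.4% of all probe sets were) and 1, *mrg-1* 179898_s_at, was lower in all 3 (13.2%). Pair 1 was lower in the mutant for 8 of the 12 and pair 3 higher for 9.

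**Figure D5:**
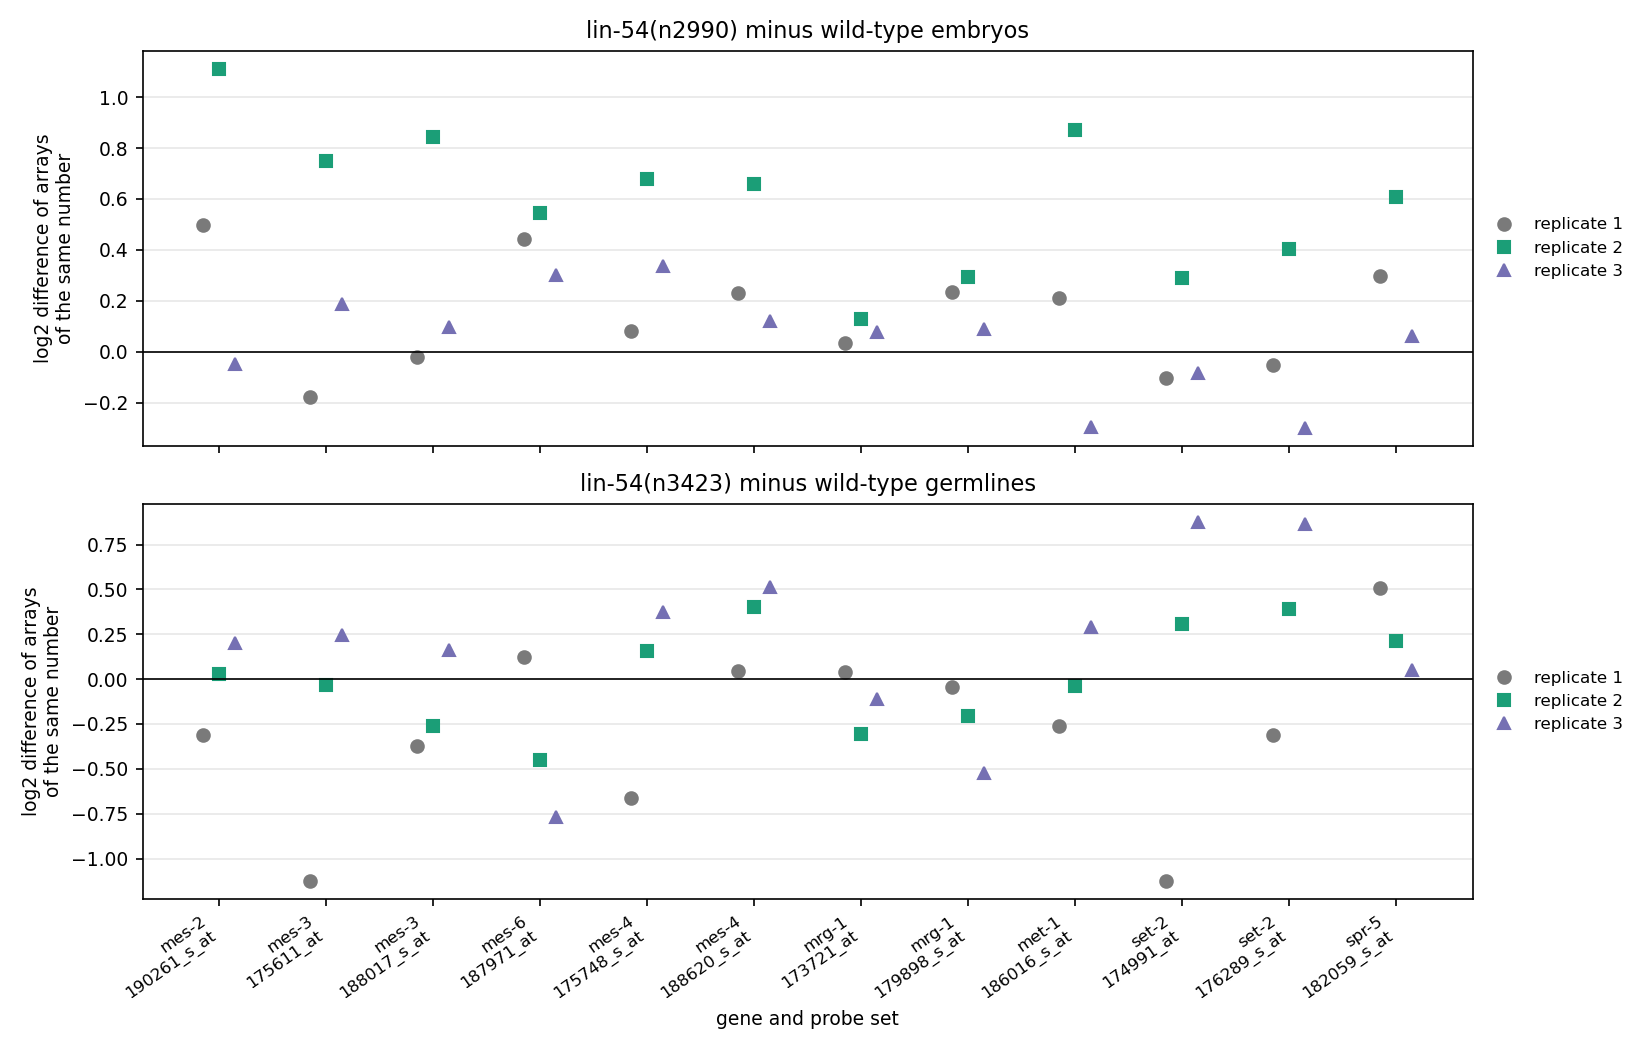
Log2 difference, mutant minus wild-type, between arrays of the same replicate number (vertical axis) for each probe set in embryos (top, *lin-54(n2990)*) and germlines (bottom, *lin-54(n3423)*). Each point is 1 pair. Pair 2 is above 0 for all 12 probe sets in embryos, and *mes-6* is the probe set with pair differences of 0.44, 0.55 and 0.30 in embryos and 0.13, -0.45 and -0.77 in germlines.

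To place the 8 genes among their kind, 27 other genes of histone methylation were listed, of which 25 matched 45 probe sets. In *lin-54(n2990)* embryos 2 of the 25 genes were called higher and 0 lower, where 3.83% and 1.69% of all genes were. *hpl-2*, a homolog of the heterochromatin protein HP1 that binds methylated H3 lysine 9, had 10.41, 10.75 and 10.43 in *lin-54(n2990)* against 9.67, 10.06 and 9.82 in wild-type on 171755_x_at, with no overlap. Its log2 change was 0.68 ± 0.14 (SE, adjusted p = 0.102), a second of its 6 probe sets was called at 0.66, and the other 4 ran from 0.36 to 0.68, of which 180081_s_at was not called in this fit but was with the replicate block (0.68, adjusted p = 0.0845). Of the 6, 5 are _x_at probe sets, which can hybridize to related sequences. The call was lost when mutant replicate 2, wild-type replicate 1 or wild-type replicate 3 was left out.

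The other was *jmjd-3.3*, a JmjC domain gene of the family of H3 lysine 27 demethylases. On 177427_at it had 7.20, 7.06 and 6.94 in *lin-54(n2990)* and 6.41, 6.44 and 6.46 in wild-type, present on all 3 mutant arrays and 0 wild-type ones, with a log2 change of 0.63 ± 0.091 (SE, adjusted p = 0.0716). Its 2 other probe sets changed by 0.41 (adjusted p = 0.123) and 0.11, and the call was lost without mutant replicate 1. With the replicate block *set-30*, a SET domain gene, was called lower. It had 9.71, 8.67 and 9.93 in *lin-54(n2990)* and 10.65, 9.46 and 10.47 in wild-type, which overlap as groups but fell by 0.94, 0.79 and 0.54 in the 3 pairs (limma, adjusted p = 0.0586).

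Over the 45 probe sets, 39 were higher by mean in *lin-54(n2990)* embryos with a median log2 change of 0.25, where 50.7% of all probe sets and 60.9% of those present throughout (median 0.11) were higher and 37 of the 45 were present throughout. Without mutant replicate 2, 37 of the 45 were higher and the median was 0.17. With all arrays 15 had no overlap between groups, all higher (15.2% of all probe sets were). The H3 lysine 9 methyltransferases and readers had 14 of 14 probe sets higher by mean (median 0.43, 7 without overlap), 6 of them from *hpl-2*. The H4 lysine 20 enzymes *set-1* and *set-4* had 3 of 3, all without overlap, by 0.23 to 0.27. The partners of SET-2 in the H3 lysine 4 complex, such as *ash-2*, *cfp-1* and *dpy-30*, had 8 of 9 (median 0.12), the other SET domain genes 4 of 5 (median 0.34), and the demethylases 10 of 14 (median 0.23). No group other than those holding *hpl-2* and *jmjd-3.3* had a called gene without the block. In *lin-54(n3423)* germlines 0 of the 25 genes were called (0.0849% of all genes were called higher and 0.419% lower), 22 of the 45 probe sets were higher by mean, the median was -0.0063, and 0 reached an unadjusted p of 0.05.

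Genes outside the group that followed the H3 lysine 27 complex most closely across arrays were sought by correlating each probe set present on all 12 arrays (4468 of them) with the mean profile of *mes-2*, *mes-6* and *mes-3*, each tissue centred and scaled on its own. The 5 highest were *mcm-7* (r = 0.985), *unc-37* (0.980), F26G1.1 (0.971), *eft-1* (0.970) and *daf-18* (0.967). Of the genes that did not enter the profile, *mes-4* had 0.93 and 0.91, *mrg-1* 0.89 and 0.74 and *spr-5* 0.87. *set-2* had 0.78 and 0.69, and *met-1*, at 0.16, the lowest. Unlike the 4468, these probe sets did not have to be present on all 12 arrays. *met-1* was called absent on every germline array, so its r rests in part on background values. How r was spread over the 4468 is not given here. These are descriptions over 12 points that share the high embryo replicate 2 and the low germline arrays numbered 1.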

How the data were processed

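Affymetrix *C. elegans* Genome arrays of embryos and dissected germlines were analysed, 3 per genotype and tissue, 12 in all. The deposited log2 intensities are rma values that the authors computed with affy, which corrects background, equalizes the distributions of the arrays and summarizes the probes of each set. The tables of embryos and germlines were made apart, with gene names from WormBase WS190; versions are not given in the sources used here. The deposited detection calls (present, marginal, absent) come from the Affymetrix microarray suite. The tables also hold the authors' log2 fold changes, mean levels and p-values from their own comparisons, which were not used. For arrays, their number limits the precision.

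Each tissue was fitted alone over 21541 probe sets, as mutant minus wild-type, by the lmFit and eBayes functions of limma 3.58.1 (statmod 1.5.0) in R 4.3.3, with no covariate. Adjusted p-values are Benjamini-Hochberg values. A gene was called when at least 1 of its probe sets passed. The fit was run on simulated data with independent noise on each array. Deviations shared by arrays of the same replicate number were not simulated, so the simulation does not cover them. Figures were drawn with Python 3.11.15 and matplotlib 3.10.9. After subtraction of group means, arrays of the same replicate number correlated at 0.246, 0.362 and 0.276 in embryos and at 0.834, 0.363 and 0.392 in germlines. Correlations between arrays of different number were not set beside these. Deviations within a genotype cancel out, so the values of a tissue depend on each other and cannot show that samples were paired. The number was used as a block in an alternative fit only. The labels give replicate numbers but state no pairing.

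Named are the 8 genes, *lin-54*, the genes of the methylation lists that passed the call rule and the 5 probe sets of highest correlation with *mes-2*, *mes-6* and *mes-3*; *rbr-2*, *set-30* and the list members given as examples were named beside that rule. Of the methylation lists, *set-26* and *jmjd-3.1* matched no symbol, nor did *unc-54* of the muscle and late differentiation markers. The genes and lists were chosen with earlier results of these data known. Alternatives were the adjusted p of at most 0.05, no fold threshold, the replicate block, median centring, quantile normalization, a mean log2 value of at least 6, present calls on at least 3 arrays, array weights, a robust variance prior that follows intensity, the mean of the probe sets of a gene, each array left out and the germline arrays numbered 1 left out. The marker lists without the arrays that stood apart were added after seeing the data. Promoter sequences were not used here.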

Additional observations from a re-analysis of the deposited data

Results flagged for a closer look

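*mrg-1* 179898_s_at stood out because every numbered pair moved one way in embryos and the other way in germlines. Its log2 change was 0.21 in *lin-54(n2990)* embryos, with pair differences of 0.23, 0.30 and 0.089, and -0.26 in *lin-54(n3423)* germlines, with pair differences of -0.046, -0.20 and -0.52. Neither change was called, and the difference between the tissues was not tested, since allele, temperature, RNA amplification and normalization differ with them. The second *mrg-1* probe set had pair differences of both signs in germlines.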

How the results depend on the processing

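No gene of the 8 was called in embryos under any alternative. In germlines the count was 1, *mes-6* lower, with the arrays numbered 1 left out, and 0 otherwise. Of 108 embryo changes recomputed under the alternatives other than leaving out 1 array, 5 changed sign and 0 were called. They were *mrg-1* 173721_at with array weights (-0.018), and *set-2* 174991_at and 176289_s_at under quantile normalization (-0.059 and -0.075) and array weights (-0.069 and -0.067). Of 116 germline changes, 8 changed sign and 1, that of *mes-6*, was called (-0.61). With the arrays numbered 1 left out these were *mes-2* (0.11), *mes-3* 175611_at (0.11), *mes-4* 175748_s_at (0.27) and *met-1* (0.13), with array weights *mes-2* (0.033), *mes-4* 175748_s_at (0.19) and *met-1* (0.062), and with quantile normalization *mes-4* 175748_s_at (0.062). Array weights did not reach their convergence tolerance. The cause of these sign changes was not tested.

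Leaving out each array in turn called no gene of the 8. In embryos the log2 change then ran from -0.0065 to 0.15 for *mrg-1* 173721_at, from -0.038 to 0.073 for *set-2* 174991_at and from -0.12 to 0.12 for *set-2* 176289_s_at, and the other 9 kept their sign. In germlines the ranges were -0.56 to 0.65 for *mes-2*, -0.62 to 0.27 and -0.36 to 0.055 for *mes-3* 175611_at and 188017_s_at, -0.30 to 0.39 and -0.16 to 0.94 for *mes-4* 175748_s_at and 188620_s_at, -0.33 to 0.0024 and -0.82 to 0.20 for *mrg-1* 173721_at and 179898_s_at, -0.11 to 0.12 for *met-1*, -0.26 to 0.49 and -0.11 to 0.94 for *set-2* 174991_at and 176289_s_at, and -0.23 to 0.62 for *spr-5*; *mes-6* stayed lower, by -0.85 to -0.054.

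Of the other methylation genes, 2 were called in embryos, where 1058 of all 21541 probe sets were. Under the adjusted p threshold the count was 0 (57 of all probe sets were called), and with the probe sets of a gene averaged 0 (862 of all genes). With 1 array left out it was 1 to 5, where 445 to 2668 of all probe sets were called. The 5 came without mutant replicate 3, the fit with 2668. In germlines 0 were called in the main fit, where 95 of all probe sets were. In 3 other fits 1 was called, *rbr-2*, which encodes an H3 lysine 4 demethylase and was named after its values were seen. These were array weights (log2 change 0.84, 318 of all probe sets called), the arrays numbered 1 left out (1.06 and 1.15, 428 called) and mutant replicate 1 left out (1.34, 150 called). The range was 0 to 1 with 1 array left out. The replicate block changed no call of a gene other than that of *set-30* in embryos, and 1 more probe set of *hpl-2* was called with it. With 3 arrays a group the SE limits what could be detected, most for *mes-2* in germlines (0.72), and less so with the block or without the arrays numbered 1. The smallest germline SE, that of *met-1* (0.14), does not show that a change could be seen, since *met-1* was called absent on every germline array.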
